A study of Mus musculus with 40 samples.

Results

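Retinas of mice with oxygen-induced retinopathy (OIR) that had received control IgG were compared with retinas of control mice at postnatal day 17 (P17). The comparison takes 8 of the 40 deposited RNA-seq libraries, chosen by their titles: 4 libraries of OIR retinas with IgG and 4 of control retinas (nOIR), across all genes. All mice were C57BL/6J. The OIR pups breathed 75% oxygen between P7 and P12 and room air afterwards, and 1 µl of control IgG at 0.4 µg/µl was injected into the vitreous at P14. Whether the control mice had an injection is not stated in the labels, so the comparison holds any effect of the injection and the IgG together with that of the oxygen exposure. Each library came from 1 whole retina. The labels call the samples independent but do not say which retinas, if any, came from 1 mouse or litter. The p-values therefore measure the spread between retinas, estimated over all 40 libraries of the series.

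In the OIR model, high oxygen stops growth of the retinal vessels and part of the capillary bed is lost. Back in room air, the retina that lacks vessels is short of oxygen, the hypoxia-inducible factors (HIF) are no longer degraded, and factors such as VEGFA drive tufts of new vessels towards the vitreous. Regrowth of the bed and regression of the tufts follow, with microglia and reactive glia around them.

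Levels are given in CPM (counts scaled to a common library total, here with TMM factors), and the counts were tested with edgeR's quasi-likelihood test, and genes counted as called at a Benjamini-Hochberg adjusted p, over all tested genes, under 0.05. Of 23495 genes tested, 555 (2.36%) were called: 496 (2.11%) higher and 59 (0.251%) lower in OIR retinas. The counts called in each list below are to be read beside these shares of all tested genes. The lists were chosen with earlier results of these data known, so a higher share in a list is not independent support. Of 1097 tested genes in the lists, 130 were called higher and 6 lower. The median fold of the called genes was 1.81 for those higher and 0.518 for those lower, and 59 of the higher ones were at least 4-fold higher. The 4 OIR libraries did not overlap the 4 control libraries for 515 of the 555, against 11.4% of all tested genes (6.82% with OIR above and 4.58% with OIR below). Estimates were positive for 46.4% of all tested genes. In limma-trend on log2(TPM + 1), where the median log2 change of all genes was -0.22 in place of -0.05, 161 genes were called higher and 201 lower (44.5% of the calls higher, against 89.4% in edgeR).

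The OIR libraries held 16481907 to 25835055 counts and the control libraries 12260755 to 21278540, a difference that did not pass an exact permutation test (two-sided p = 0.057, adjusted over 3 library measures p = 0.17, and 0.029 is the smallest p that 4 against 4 allows). Scaling (TMM) factors were 0.941 to 1.01 in OIR and 1.06 to 1.28 in control libraries, highest in control 3. Y-linked genes summed to 126 to 215 CPM in OIR 1 and 2 and control 1 and 4, and Xist stood at 377 to 652 CPM in the other 4, so that each group held 2 libraries of either kind. Control 4 also held Xist at 31 CPM, and OIR 3 and control 2 held 11.7 and 12.3 CPM of Y-linked RNA beside Xist. The retina's own markers were present throughout: rod transducin (Gnat1) stood at 13601 to 15803 CPM in OIR and 9080 to 11588 CPM in control libraries, and the Müller glia gene Rlbp1 at 856 to 1074 CPM in OIR and 542 to 1035 CPM in control libraries. RNA of neighbouring tissues differed between libraries. The 21 pigment epithelium genes summed to 1465, 1580, 2455 and 1379 CPM in OIR retinas 1 to 4, against 993, 835, 717 and 655 CPM in control retinas 1 to 4, without overlap. The 16 crystallins summed to 4498 CPM in OIR 4 and to 109 to 224 CPM in the other OIR retinas, against 50.9 to 104 CPM in control retinas. Genes of red blood cells summed to 1698 CPM in OIR 2 and to 341 to 831 CPM in the other OIR retinas, against 211 to 424 CPM in control retinas. In whole-retina RNA, a change in the number of cells of a type and a change in RNA per cell cannot be told apart.

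**Figure D1:**
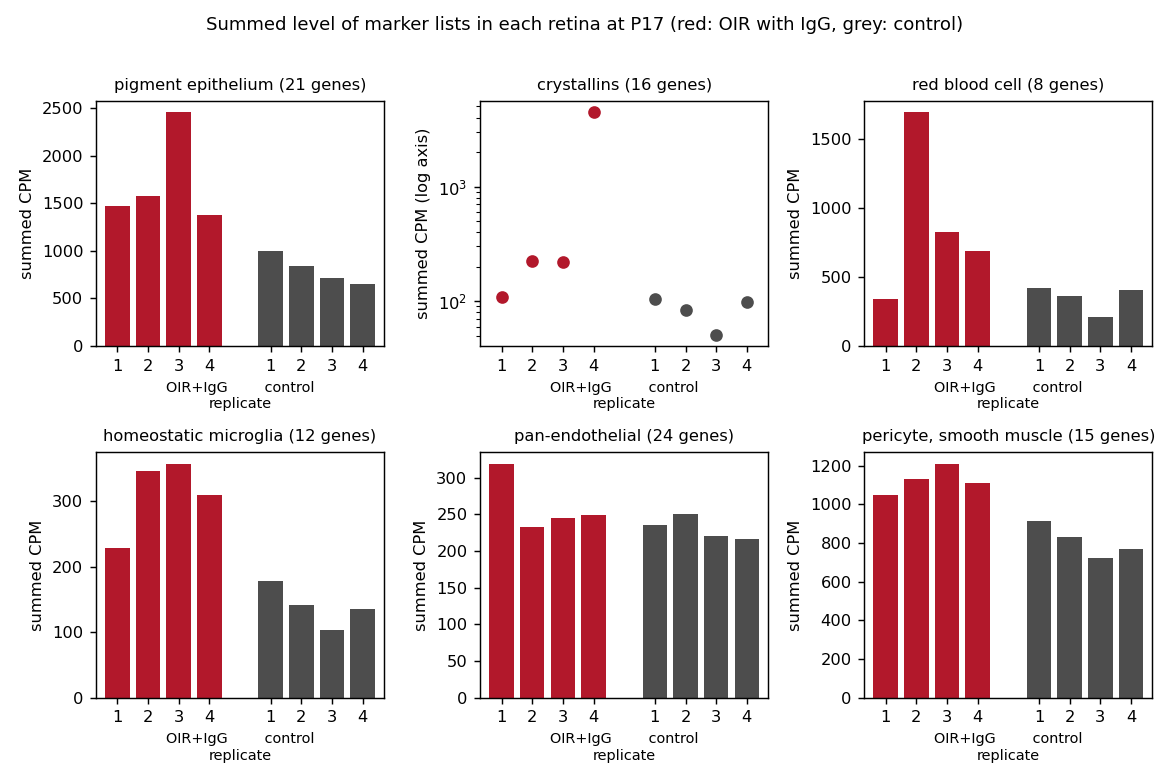
Summed CPM of 6 marker lists in each retina at P17, with OIR retinas with IgG (red) left of control retinas (grey) and the crystallins on a log axis. The red blood cell sum takes 9 genes, of which 8 were tested. Pigment epithelium genes were higher in every OIR retina (1379 to 2455 CPM) than in any control retina (655 to 993 CPM), crystallins stood far above the rest in OIR 4 alone (4498 CPM), and pan-endothelial genes overlapped (233 to 319 CPM in OIR and 217 to 251 CPM in control retinas).

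Of the genes that set HIF activity, 2 hydroxylases and Vhl were higher in OIR retinas. Egln3, a prolyl hydroxylase that marks HIF for degradation, stood at 7.54, 25.2, 12.1 and 14.5 CPM in OIR retinas 1 to 4, against 2.42, 1.38, 3.19 and 4.91 CPM in control retinas 1 to 4. The groups did not overlap, and OIR 2 was the highest. The fold was 5.01 (log2 2.32, SE 0.52, edgeR adjusted p = 0.0078), and the call was lost without OIR 2 (adjusted p = 0.075). Egln1, the main hydroxylase of the family, was 1.71-fold higher (adjusted p = 0.021), and Vhl, which binds hydroxylated HIF for degradation, was 1.58-fold higher (adjusted p = 0.0084). Egln1 lost its call without OIR 2, control 3 or control 4 (adjusted p up to 0.15) and Vhl without control 4 (adjusted p = 0.053). The factors themselves were not called: Hif1a was at 1.22-fold (adjusted p = 0.42), Epas1, which encodes HIF-2α, at 0.857-fold (adjusted p = 0.67), and their partner Arnt at 1.09-fold (adjusted p = 0.87). In all, 3 of 11 genes of this list were called higher and 0 lower, with a median log2 change of 0.13, or -0.19 on the TPM scale. On that scale Egln3 was called higher and Cited2, which competes with HIF for a coactivator, lower. With covariates for pigment epithelium and crystallin RNA 0 of the 11 were called, as without control 3 and OIR 4 together, and leaving out 1 library left 1 (without OIR 2 or control 4) to 3.

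Of 28 genes outside glycolysis and the vessels that HIF is known to induce, 8 were called higher and 0 lower, led by Adm and Ndufa4l2. Adm, which encodes the vasodilator adrenomedullin, stood at 23.1, 37.1, 27.3 and 39.5 CPM in OIR retinas, against 2.42, 1.15, 0.574 and 2.02 CPM in control retinas. Ndufa4l2, a mitochondrial protein that lowers respiration under low oxygen, stood at 65.9, 89.1, 74.9 and 91.4 CPM in OIR retinas, against 7.73, 8.3, 5.23 and 8.01 CPM in control retinas. For both genes every OIR retina lay far above the highest control retina. The folds were 20.7 for Adm (log2 4.37, SE 0.47, adjusted p = 6.9e-08) and 10.9 for Ndufa4l2 (log2 3.45, SE 0.27, adjusted p = 1.1e-11). Ndufa4, the respiratory chain subunit that Ndufa4l2 resembles, was at 1.34-fold (adjusted p = 0.39). Bnip3, a receptor for the removal of mitochondria, stood at 584, 943, 730 and 765 CPM in OIR retinas, against 365, 366, 197 and 279 CPM in control retinas, a 2.5-fold difference without overlap (adjusted p = 9.0e-06). Its relative Bnip3l was 1.56-fold higher (492 CPM in OIR and 314 CPM in control retinas, adjusted p = 0.017). The others called included Fam162a (2.2-fold), Higd1a (1.83-fold), Ero1a, which oxidises proteins in the endoplasmic reticulum (2.04-fold), and Plod1, a collagen lysyl hydroxylase (2.07-fold). The median log2 change of the 28 was 0.50, against -0.05 over all tested genes, and 4 of the 28 were called with covariates for pigment epithelium and crystallin RNA. Leaving out 1 library left 6 (without OIR 2) to 8 called.

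Calls in glycolysis ran from glucose uptake to lactate export. Slc16a3, the lactate exporter MCT4, stood at 84.4, 111, 78.9 and 101 CPM in OIR retinas, against 35.4, 38.8, 41.8 and 36.4 CPM in control retinas. Every OIR retina lay above every control retina, and the fold was 2.46 (SE of log2 0.19, adjusted p = 1.8e-05). Another lactate carrier, Slc16a1, was 1.68-fold higher (404 CPM in OIR and 240 CPM in control retinas, adjusted p = 0.0066). The glucose carrier Slc2a1 was 1.62-fold higher (394 CPM in OIR and 244 CPM in control retinas, adjusted p = 0.028). Among the enzymes, Pgk1 averaged 1297 ± 144 CPM in OIR and 774 ± 81.3 CPM in control retinas (SD, n = 4 each; 1.68-fold, adjusted p = 0.0011). Tpi1 was 1.75-fold, Ldha 1.69-fold, Gapdh 1.51-fold and Pkm 1.44-fold higher, and Ldha lost its call without control 3 (adjusted p = 0.051). Of 26 genes, 8 were called higher and 0 lower, and the median log2 change was 0.50, or 0.15 on the TPM scale. With pigment epithelium and crystallin covariates 1 of the 26 was called, Slc16a3, and without control 3 and OIR 4 together 3 were called. Leaving out 1 library at a time left 4 (without control 3) to 8 of the 26 called.

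The 5 stretches shown next are the 150 bases upstream of the start of called hypoxia and glycolysis genes, shown because HIF is known to bind the core letters ACGTG or GCGTG. They come from RefSeq, build GRCm38.p6, 5′ to 3′ on the strand of the gene. Adm lies at chr7:110627507-110627656 on the plus strand, Bnip3 at chr7:138909507-138909656 on the minus strand, Ldha at chr7:46845654-46845803 on the plus strand, Pgk1 at chrX:106186950-106187099 on the plus strand and Slc16a3 at chr11:120948917-120949066 on the plus strand. Capitals mark matches to ACGTG or GCGTG on either strand, so that CACGT and CACGC are matches read from the other strand, and overlapping matches such as CACGTG were both counted.
Adm: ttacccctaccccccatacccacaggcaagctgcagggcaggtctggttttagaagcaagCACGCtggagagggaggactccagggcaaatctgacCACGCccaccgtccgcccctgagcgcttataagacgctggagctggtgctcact
Bnip3: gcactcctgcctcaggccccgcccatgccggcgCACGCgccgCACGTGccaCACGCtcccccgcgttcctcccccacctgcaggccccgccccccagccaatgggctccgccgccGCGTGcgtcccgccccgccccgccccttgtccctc
Ldha: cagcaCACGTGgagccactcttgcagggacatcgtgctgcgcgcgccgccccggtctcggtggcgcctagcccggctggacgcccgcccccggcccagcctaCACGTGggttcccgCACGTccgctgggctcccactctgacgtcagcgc
Pgk1: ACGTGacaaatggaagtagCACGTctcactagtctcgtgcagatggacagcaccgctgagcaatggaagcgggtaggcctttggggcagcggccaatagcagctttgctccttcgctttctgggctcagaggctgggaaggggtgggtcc
Slc16a3: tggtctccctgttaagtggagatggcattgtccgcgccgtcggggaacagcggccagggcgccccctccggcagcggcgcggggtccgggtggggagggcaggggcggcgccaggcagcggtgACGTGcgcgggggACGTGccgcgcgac
Bnip3 and Ldha held 5 matches each and the other 3 stretches 2 each, the nearest 14 bases from the start in Slc16a3. Over the 250 bases upstream, 15 of 17 called genes of the hypoxia and glycolysis lists with a promoter in the table (88.2%) held at least 1 match, against 32 of 39 genes of those lists that were not called (82.1%) and 50.5% of 17617 tested genes. A match is a run of letters and says nothing of binding, and its share was similar in called and uncalled members.

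Of 16 VEGF and angiopoietin ligands and receptors 1, Vegfa, was called higher and 0 lower, against 2.11% of all tested genes called higher. Of the tip cell genes the largest fold was that of Apln. Vegfa, the growth factor that drives vessel sprouting, stood at 251, 244, 199 and 218 CPM in OIR retinas, against 94.3, 107, 96.3 and 91 CPM in control retinas. The groups were far apart in CPM (2.35-fold, log2 1.23, SE 0.20, adjusted p = 1.6e-04), although the call was lost in limma-trend on TPM (adjusted p = 0.12). Its fold was 2.58 with pigment epithelium and crystallin covariates. Apln, which encodes the apelin peptide of endothelial tip cells, stood at 61.5, 51.4, 47.4 and 42.1 CPM in OIR retinas, against 3.29, 6.35, 3.64 and 3.1 CPM in control retinas. No retina came between the groups, and the fold was 12.2 (log2 3.61, SE 0.36, adjusted p = 8.3e-09). Angpt2, a TIE2 ligand released by sprouting endothelium, stood at 12.7, 10.2, 13.5 and 19.5 CPM in OIR retinas, against 6.32, 5.42, 4.85 and 4.91 CPM in control retinas. Its groups did not overlap either, but its adjusted p was 0.052. The other ligands showed no call: Vegfb was at 1.02-fold, Vegfc at 0.657-fold, Pgf, the placental growth factor, at 2.45-fold (adjusted p = 0.32) and Angpt1 at 0.824-fold. The receptors Kdr (1.07-fold), Flt1 (1-fold) and Tek (1.72-fold, at 0.403 to 2.44 CPM in OIR and 0.128 to 2.29 CPM in control retinas) were not called.

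Of genes of the vessel wall, 1 of 24 pan-endothelial, 2 of 19 tip cell and neovascular and 3 of 15 pericyte and smooth muscle genes were called higher and 0 lower, against 2.11% of all tested genes called higher. These counts were 0, 1 and 1 with pigment epithelium and crystallin covariates. Of the 24 pan-endothelial genes only Egfl7, a secreted factor of endothelial cells, was called (2.08-fold, adjusted p = 0.027), and the call was lost when any 1 of 5 libraries was left out (adjusted p up to 0.21). Pecam1 stood at 4.5 to 6.73 CPM in OIR and 1.82 to 4.31 CPM in control retinas (adjusted p = 0.64). Of the 19 tip cell and neovascular genes, Apln and Cd34 (2.21-fold, adjusted p = 0.035) were called, and Cd34 lost its call when any 1 of 5 libraries was left out (adjusted p up to 0.22). Among pericyte and smooth muscle genes Acta2, smooth muscle actin, stood at 10.6, 20.5, 12.7 and 13 CPM in OIR retinas, against 2.76, 1.07, 2.23 and 1.89 CPM in control retinas (7.21-fold, adjusted p = 1.6e-04), with no overlap. Higd1b and Rgs5, both expressed in pericytes, were 3.21-fold and 1.95-fold higher (Rgs5 not without OIR 3 or control 3, adjusted p up to 0.081), whereas the receptor Pdgfrb stood at 2.34 to 10.7 CPM in OIR and 7.93 to 16.6 CPM in control retinas (adjusted p = 0.42). Id1, a target of BMP signalling, was 2.16-fold higher (46.5 ± 2.05 CPM in OIR and 21.6 ± 6.89 CPM in control retinas, adjusted p = 0.0029), the 1 call among 30 genes of TGF-beta and BMP signalling. None of 35 basement membrane and matrix genes was called in the edgeR fit to all 40 libraries. The edgeR fit to the 20 libraries of P17 called 3 of them higher, and that to the 8 libraries alone also 3. In the main fit the one with the smallest p was Sparc (1.6-fold, adjusted p = 0.054), which DESeq2 called (and edgeR without control 1). None of 19 Norrin and Wnt genes was called. Of 28 vessel guidance cues 1 was called, Sema3b, a secreted semaphorin (2.54-fold, adjusted p = 0.011), which lost its call without OIR 3 (adjusted p = 0.081).

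Of all called genes, the largest fold after the lens gene Cryaa belonged to a protease inhibitor. Serpine3, a secreted serpin, stood at 141, 253, 421 and 152 CPM in OIR retinas, against 5.51, 3.24, 3.38 and 2.36 CPM in control retinas. Every OIR retina lay far above every control retina, and OIR 3 was the highest. The fold was 66.9 (log2 6.06, SE 0.88, adjusted p = 8.5e-05), and 27.9 with pigment epithelium and crystallin covariates (adjusted p = 0.014). Serpina3n, a serpin of reactive astrocytes, was 11.1-fold higher (adjusted p = 0.0019), and Serping1, the inhibitor of complement C1, 4.02-fold higher (adjusted p = 0.0024). With the covariates Serpine3 was the 1 serpin called, Serpina3n being at 6.28-fold and Serping1 at 2.97-fold (adjusted p = 0.27 for both). These were the 3 called of 14 serpins, the median log2 change of the 14 being 0.56. Among 24 metalloproteinases and their inhibitors Mmp12, the macrophage elastase, was the 1 call: it stood at 4.28, 2.82, 11.9 and 4.15 CPM in OIR retinas, against 0, 0.932, 0.319 and 0 CPM in control retinas (adjusted p = 0.045). Its call was lost when any 1 of 6 libraries was left out (adjusted p up to 0.17). That 1 call among 24 genes is near the share of all tested genes called higher (2.11%).

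**Figure D2:**
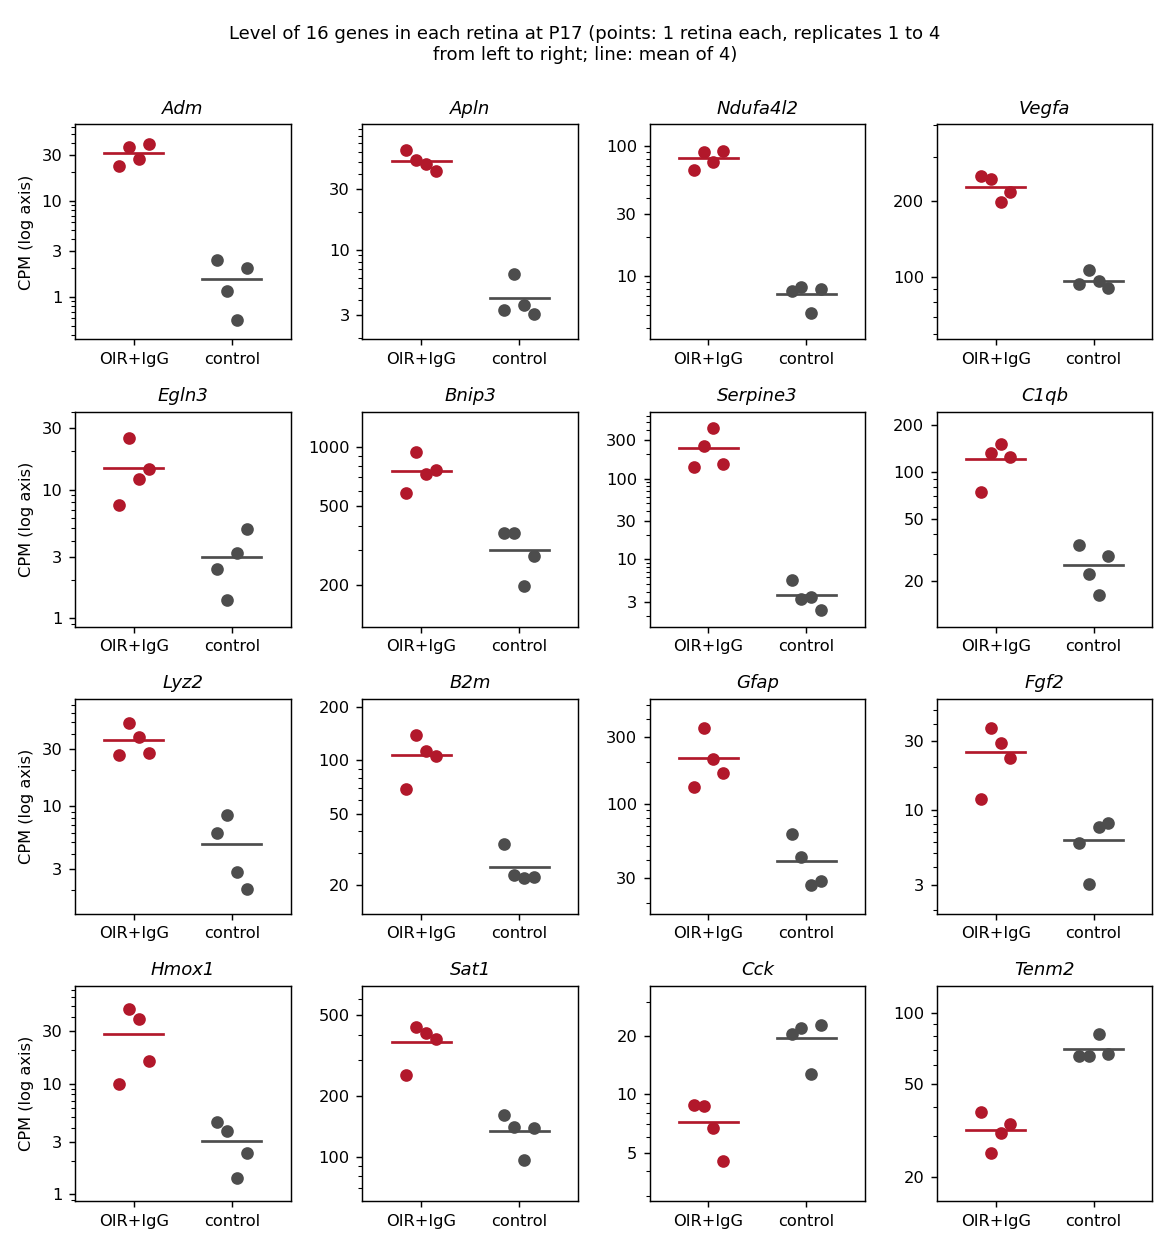
CPM on a log axis of 16 genes in each retina at P17, with OIR retinas with IgG (red) left of control retinas (grey), 1 point a retina and a line at the mean of 4. In all 16 panels the groups are apart: 14 genes are higher in OIR, by 2.35-fold (Vegfa) to 66.9-fold (Serpine3), and Cck and Tenm2 are lower (0.37-fold and 0.455-fold).

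Of 20 complement genes, some of which microglia, the resident macrophages of the retina, are known to make, 6 were called higher and 0 lower. C1qb, a chain of complement C1q, stood at 74.4, 133, 152 and 125 CPM in OIR retinas, against 34.2, 22.3, 16.4 and 29.2 CPM in control retinas (4.76-fold, log2 2.25, SE 0.23, adjusted p = 2.4e-08). The other chains moved alike, C1qc 3.73-fold and C1qa 3.61-fold, and OIR 1 was the lowest OIR retina for C1qb, C1qc and C1qa. C4b, a later component of the same cascade, stood at 8.61, 26.1, 24.5 and 7.93 CPM in OIR retinas, against 0, 0.843, 2.61 and 0.337 CPM in control retinas (17.5-fold, adjusted p = 0.0016). OIR 2 and 3 were about 3 times as high as OIR 1 and 4, and all 4 lay above the controls. C3 was at 2.45-fold (adjusted p = 0.38). The median log2 change of the 20 was 1.47, and 4 of the 20 were called with pigment epithelium and crystallin covariates.

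Of 12 genes of resting and 21 of activated microglia, 5 and 9 were called higher and 0 lower. Of the 12 homeostatic genes all had a positive estimate and 5 were called, among them Fcrls (7.97-fold), Gpr34 (3.04-fold), P2ry12, the ADP receptor (2.63-fold, adjusted p = 0.013), and Cx3cr1, the fractalkine receptor (2.59-fold). Cx3cr1 lost its call without control 3 (adjusted p = 0.054). The sum of the 12 was 228, 346, 357 and 309 CPM in OIR retinas, against 178, 141, 103 and 135 CPM in control retinas, with no overlap. All 21 genes of activation had a positive estimate and 9 were called. Lyz2, lysozyme, stood at 26.8, 49.1, 37.8 and 27.9 CPM in OIR retinas, against 5.98, 8.48, 2.81 and 2.02 CPM in control retinas (7.25-fold, log2 2.86, SE 0.35, adjusted p = 7.7e-07). Lgals3, galectin-3, was 10.1-fold higher (20.3 ± 8.67 CPM in OIR and 1.98 ± 1.17 CPM in control retinas, adjusted p = 6.6e-07), and Cd68, a lysosomal protein of macrophages, 6.33-fold higher (adjusted p = 4.4e-05). Spp1, osteopontin, was 2.03-fold and Cd63 1.71-fold higher. The medians of the homeostatic and the activated list were 0.92 and 1.21 (log2), against -0.05 over all tested genes. With pigment epithelium and crystallin covariates 1 of the 12 homeostatic and 4 of the 21 activation genes were called, and without control 3 and OIR 4 together 3 and 7. Leaving out 1 library at a time left 3 (without control 3) to 5 of the homeostatic and 7 (without OIR 2 or control 3) to 12 of the activation genes called.

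Of 26 lysosome and cathepsin genes 12 were called higher and 0 lower, against 2.11% of all tested genes called higher. A positive estimate was found for 25 of the 26. Ctsz stood at 74.7, 118, 122 and 108 CPM in OIR retinas, against 53, 34.1, 36.1 and 50.7 CPM in control retinas (2.43-fold, adjusted p = 1.3e-05), again with no overlap and with OIR 1 lowest. Ctss (2.67-fold), Ctsd (2.02-fold), Ctsc (1.99-fold), Ctsh (1.56-fold) and Ctsb (1.52-fold), all proteases, were called as well, as were the protease inhibitor Cst3 (1.76-fold), the membrane protein Lamp2 (1.69-fold) and the cholesterol carrier Npc2 (1.64-fold). With pigment epithelium and crystallin covariates 1 of the 26 was called, and leaving out 1 library left 5 (without OIR 2) to 12. Among 32 genes of Fc receptors and phagocytosis 2 were called: Fcer1g, the signalling chain of Fc receptors (4.73-fold, adjusted p = 1.8e-05), and Fcgr3 (3.37-fold, adjusted p = 0.0031). These genes bear on the injected IgG, and no group of OIR retinas without it belongs to the comparison.

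Markers of blood-borne cells were near 0. The 14 neutrophil and monocyte genes, of which 5 were tested, summed to 1.97 to 5.13 CPM in OIR and 2.09 to 4.08 CPM in control retinas. S100a8 and S100a9 were at 0 in 7 and 6 of the 8 libraries. The 16 lymphocyte genes, of which 6 were tested, summed to 3.05 to 7.49 CPM in OIR and 2.62 to 6.12 CPM in control retinas. Cd3e was at 0 in 7 of 8. Mrc1, a receptor of macrophages at the tissue border, stood at 1.46, 0.282, 1.66 and 4.7 CPM in OIR retinas, against 0.202, 0, 0 and 0.135 CPM in control retinas (adjusted p = 0.029). It was the 1 call of 10 border macrophage genes, and its call was lost when any 1 of 5 libraries was left out (adjusted p up to 0.15). The 10 summed to 24.7 to 35.6 CPM in OIR and 16.8 to 36.7 CPM in control retinas, which overlap, while the median of their log2 changes was 2.38, 9 of the 10 lay above 0 and 3 were called higher at P19.

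Of 22 antigen presentation genes 6 were called higher and 0 lower. B2m, the light chain of class I MHC, stood at 68.6, 139, 113 and 106 CPM in OIR retinas, against 34, 22.5, 21.9 and 22.1 CPM in control retinas (4.25-fold, log2 2.09, SE 0.24, adjusted p = 1.7e-07). Control 1 was the highest control retina, well below OIR 1, the lowest OIR retina. The table lists several MHC genes under 4 rows each, between which reads are divided, so their copies were also summed. Summed, the class II gene H2-Ab1 averaged 19.7 ± 5.07 CPM in OIR and 2.81 ± 1.21 CPM in control retinas (6.97-fold, adjusted p = 6.4e-07), and the class I genes H2-K1 and H2-D1 were 2.42-fold and 1.93-fold higher (adjusted p = 0.0024 and adjusted p = 0.0026). The class II partner H2-Aa, at 1.12 CPM in OIR and 0.299 CPM in control retinas, was not called (adjusted p = 0.56). Aif1, the microglial protein IBA1, also has 4 rows and was 3.45-fold higher when summed (8.29 ± 2.34 CPM in OIR and 2.4 ± 0.826 CPM in control retinas, adjusted p = 0.0015). The median log2 change of the 22 was 0.99, and 2 were called with pigment epithelium and crystallin covariates and also 2 without OIR 2.

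The B2m promoter is shown because it holds the letters GAAA, any 2 bases and GAAA again, a core that interferon regulatory factors are known to bind (capitals, searched on both strands). The 150 bases lie at chr2:122147537-122147686 on the plus strand (RefSeq, GRCm38.p6).
B2m: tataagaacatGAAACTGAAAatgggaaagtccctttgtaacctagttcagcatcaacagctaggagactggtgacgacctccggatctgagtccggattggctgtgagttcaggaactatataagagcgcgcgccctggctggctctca
The match begins 139 bases upstream of the start. In the 250 bases upstream, 3.28% of tested genes held a match, as did 2 of 6 called and 10 of 36 uncalled genes of the interferon and antigen presentation lists. Of 29 interferon response genes 3 were called higher and 0 lower: Ifi27 (2.07-fold), Irf8, a factor of myeloid cells (2.67-fold), and Lgals3bp (2.1-fold). All 3 calls were lost when any 1 of at least 3 libraries was left out (adjusted p up to 0.19). Of 28 chemokine, cytokine and receptor genes Tnfrsf1a (2.82-fold) and Ccl12 (7.09-fold, at 0.793 to 2.21 CPM in OIR and 0 to 0.319 CPM in control retinas) were called, and Ccl2 was not (0.3 to 1.61 CPM in OIR and 0 to 0.605 CPM in control retinas). Both calls were lost when any 1 of at least 4 libraries was left out (adjusted p up to 0.16). For comparison, 2.11% of all tested genes were called higher.

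Reactive glia were marked by Gfap, the intermediate filament of astrocytes and stressed Müller cells, which stood at 131, 348, 207 and 166 CPM in OIR retinas, against 61.6, 42.3, 26.7 and 28.4 CPM in control retinas. The fold was 5.35 (log2 2.42, SE 0.36, adjusted p = 7.0e-05), with OIR 2 the highest and no overlap. Vim, the second filament of these cells, was 1.9-fold higher (adjusted p = 0.027), and its call was lost when any 1 of 4 libraries was left out (adjusted p up to 0.21). Of 29 gliosis genes 11 were called higher and 0 lower, among them A2m, a protease trap (5.29-fold), the uncoupling protein Ucp2 (2-fold) and nestin, Nes (1.99-fold). With pigment epithelium and crystallin covariates 3 of the 29 were called, Gfap with S100a6 and Anxa2, and without control 3 alone 6 were called. Genes that define Müller cells at rest were not called: Glul, glutamine synthetase, stood at 483 to 643 CPM in OIR and 350 to 843 CPM in control retinas (0.921-fold, adjusted p = 0.86), Rlbp1 was at 1.19-fold (adjusted p = 0.6) and the water channel Aqp4 at 1.14-fold (adjusted p = 0.71). Of the 22 Müller identity genes Vim was the 1 called.

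The annexins, S100 proteins and galectins, which bind calcium and membranes or sugars, were the list with the highest share of calls. All 21 tested genes had a positive estimate and 13 were called, with a median log2 change of 0.92. S100a6 stood at 12.1, 32.1, 22.2 and 17.3 CPM in OIR retinas, against 6.12, 3.46, 2.81 and 5.99 CPM in control retinas (4.57-fold, adjusted p = 1.8e-05). Anxa2 stood at 43.9, 67.5, 52.4 and 59.5 CPM in OIR retinas, against 19, 19.9, 14.5 and 24.9 CPM in control retinas (2.85-fold, adjusted p = 2.5e-05). Neither gene had overlapping groups. Anxa3 (3.21-fold), Anxa4 (2.93-fold), S100a11 (2.83-fold), Lgals9 (2.41-fold), S100a16 (2.06-fold) and S100a10, the partner of Anxa2 (1.76-fold), were called too. With pigment epithelium and crystallin covariates 3 of the 21 were called, and 7 without OIR 3, without control 3 or without control 3 and OIR 4 together.

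Signals that pass between stressed photoreceptors and Müller glia were higher in part. Fgf2, a survival factor for photoreceptors, stood at 11.9, 37.2, 29.1 and 22.9 CPM in OIR retinas, against 5.92, 3.02, 7.65 and 8.15 CPM in control retinas (4.11-fold, adjusted p = 3.4e-04). Edn2, the endothelin that damaged photoreceptors release, stood at 2.79, 14.6, 4.32 and 2.01 CPM in OIR retinas, against 1.21, 0.71, 0.702 and 0.337 CPM in control retinas (7.97-fold, adjusted p = 0.023). OIR 2 was more than 3 times any other retina for Edn2, and its call was lost when any 1 of 4 libraries was left out (adjusted p up to 0.23). Cebpd, a transcription factor of the acute response, was 3.41-fold higher and also stood highest in OIR 2 (111 CPM, against 21.6 to 28 CPM in the other OIR retinas). It lost its call without OIR 2 (adjusted p = 0.15), as did Osmr, the oncostatin M receptor (3.42-fold), without OIR 2 or control 3 (adjusted p up to 0.087). Lif, the cytokine that starts this response, was at 0 to 3.26 CPM in OIR and 0.336 to 2.36 CPM in control retinas (adjusted p = 0.96). Stat3 was at 1.47-fold (adjusted p = 0.12) and its inhibitor Socs3 at 3.27-fold (adjusted p = 0.17). Of the 21 genes of this list, 4 were called higher and 0 lower, with a median log2 change of 0.67.

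Of 26 metallothionein, antioxidant and iron genes 6 were called higher and 0 lower, against 2.11% of all tested genes called higher. The median log2 change of the 26 was 0.42. Mt2, a metallothionein, stood at 26.2, 44.1, 40.3 and 34 CPM in OIR retinas, against 10.6, 9.1, 4.15 and 9.49 CPM in control retinas (4.33-fold, adjusted p = 8.1e-06). Hmox1, which breaks down haem, stood at 9.86, 47.3, 38.3 and 15.9 CPM in OIR retinas, against 4.5, 3.77, 1.4 and 2.36 CPM in control retinas (9.21-fold, adjusted p = 6.1e-05). OIR 2, the retina with the most red blood cell RNA, was the highest for both, and Hmox1 was 7.55-fold higher with pigment epithelium and crystallin covariates. The part of haemoglobin RNA in these values was not tested. Mt1 was 2.74-fold, Cp, the copper protein ceruloplasmin, 1.63-fold and Trf, transferrin, 3.14-fold higher. With the covariates 2 of the 26 were called, Mt2 and Hmox1, and leaving out 1 library left 4 (without control 3) to 6. Of 19 p53 targets Cdkn1a, an inhibitor of cell division (2.67-fold, adjusted p = 0.0012), and Phlda3 (2.13-fold) were called. Of 28 cell cycle genes Hmgb2 (2.4-fold, adjusted p = 5.5e-05), Ube2c (10.6-fold, at 1.89 to 4.05 CPM in OIR and 0 to 0.74 CPM in control retinas) and Pcna (1.6-fold) were called. Phlda3 and Pcna lost their calls when any 1 of at least 3 libraries was left out (adjusted p up to 0.21). Of 25 genes of cell death and the inflammasome, 3 were called higher and 0 lower, among them the receptor Tnfrsf12a (2.74-fold) and the adaptor Pycard (3.02-fold), both lost without at least 2 of the 8 libraries in turn (adjusted p up to 0.24).

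**Figure D3:**
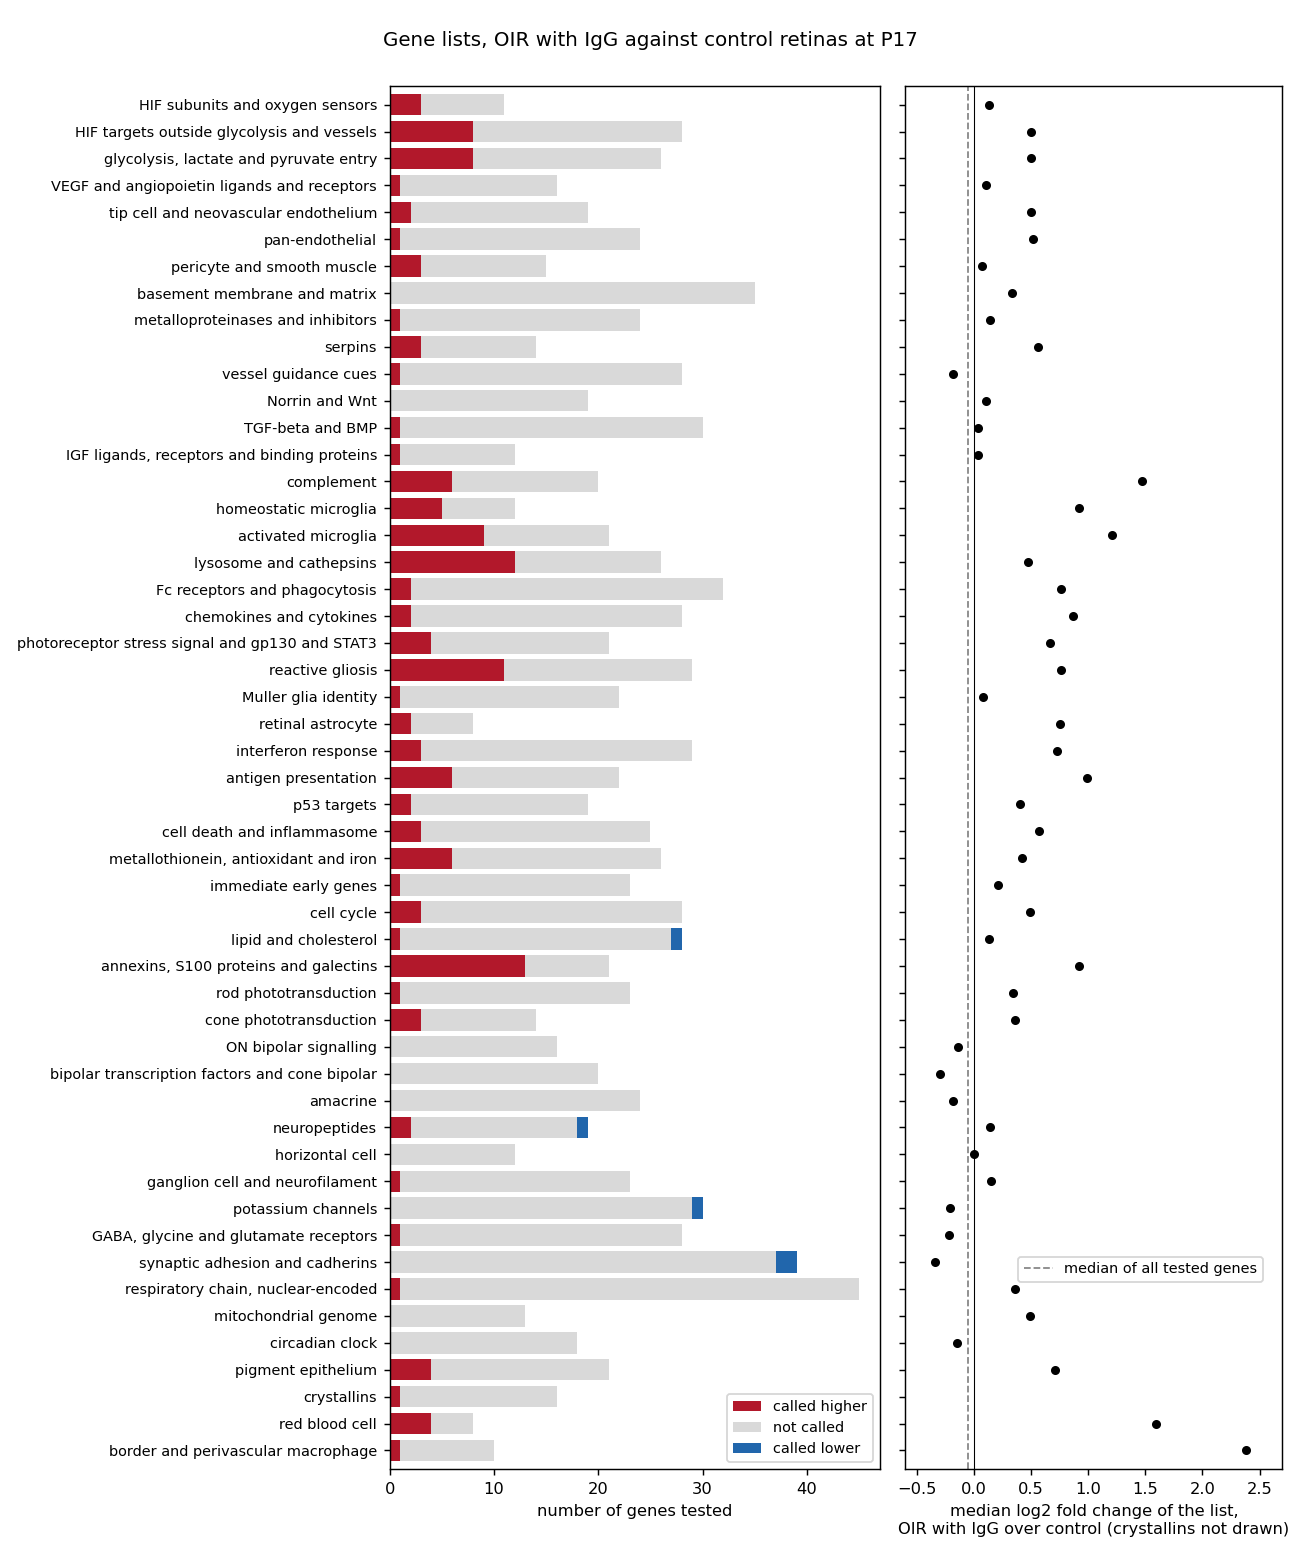
Left, number of tested genes called higher (red), not called (grey) and called lower (blue) in OIR retinas with IgG against control retinas at P17, for 51 of the 55 gene lists (crystallin median not drawn). Right, median log2 fold change of each list, with the median of all tested genes (-0.05) as a dashed line. Annexins, S100 proteins and galectins (13 of 21), lysosome (12 of 26), gliosis (11 of 29) and activated microglia (9 of 21) hold the most calls. The bipolar, amacrine, horizontal and ganglion cell lists hold 0 or 1 each, and of 19 neuropeptides 2 were called higher and 1 lower.

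Of 23 rod genes 1 was called higher and of 14 cone genes 3, with 0 lower, against 2.11% of all tested genes called higher. The rod gene was Gnb1, a transducin subunit (1.57-fold, adjusted p = 0.041, lost when any 1 of 6 libraries was left out). Gnat2, cone transducin, stood at 380, 444, 419 and 330 CPM in OIR retinas, against 216, 205, 226 and 217 CPM in control retinas (1.82-fold, adjusted p = 0.004), with no overlap. The phosphodiesterase subunits Pde6c (1.69-fold, adjusted p = 0.031) and Pde6h (1.87-fold, adjusted p = 0.04) were called, while the opsin Opn1sw (1.54-fold, adjusted p = 0.16) and cone arrestin Arr3 (0.962-fold, adjusted p = 0.93) were not. Pde6c and Pde6h lost their calls when any 1 of at least 5 libraries was left out (adjusted p up to 0.23). With pigment epithelium and crystallin covariates 0 of the 23 rod and 0 of the 14 cone genes were called.

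No gene of the bipolar and amacrine lists was called in the edgeR fit to all 40 libraries. The edgeR fit to the 8 libraries alone called 3 ON bipolar signalling genes lower. It also called 1 gene of bipolar transcription factors and cone bipolar cells and 1 amacrine gene lower, and 0 of the 3 lists higher. A fit to the 20 libraries of P17 called 1 ON bipolar gene lower and 1 gene of the second list higher. Estimates were positive for 4 of 16 genes of ON bipolar signalling, 5 of 20 bipolar transcription factors and cone bipolar genes and 9 of 24 amacrine genes, against 46.4% of all tested genes. Grm6, the glutamate receptor of ON bipolar cells, stood at 106, 77, 93.2 and 80.6 CPM in OIR retinas, against 120, 150, 154 and 119 CPM in control retinas. These groups did not overlap, but the adjusted p was 0.24 in edgeR (0.657-fold). The median log2 changes of the 3 lists were -0.14, -0.30 and -0.18. Of 12 horizontal cell genes none was called. None of 18 clock genes was called. Among ganglion cell genes Rbpms, which marks the whole class, was at 1.1-fold (adjusted p = 0.81) and the neurofilament Nefh at 0.66-fold (adjusted p = 0.13). Atf3, a factor that damaged ganglion cells switch on, was the 1 call of 23 (4.28, 16.3, 9.18 and 13.1 CPM in OIR retinas, against 3.23, 1.6, 4.97 and 2.76 CPM in control retinas; adjusted p = 0.015). OIR 1 lay below control 3, and the call was lost without OIR 2, control 2 or control 4 (adjusted p up to 0.11).

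Among the 59 genes called lower were Cck, Tenm2 and Fat4, the last a cadherin. Cck, which encodes the peptide cholecystokinin of amacrine cells, stood at 8.87, 8.7, 6.7 and 4.51 CPM in OIR retinas, against 20.5, 22, 12.7 and 22.7 CPM in control retinas (log2 -1.43, SE 0.34, adjusted p = 0.012). Tenm2, a teneurin that joins synaptic partners, stood at 37.8, 25.3, 30.9 and 33.6 CPM in OIR retinas, against 65.9, 65.6, 81.8 and 67.3 CPM in control retinas (log2 -1.14, SE 0.28, adjusted p = 0.017). Neither gene's groups overlapped. Fat4 (0.379-fold), the potassium channel Kcnj6 (0.48-fold), the latrophilin Adgrl2 (0.517-fold), the adhesion protein Kirrel (0.516-fold) and the proton-gated channel Asic3 (0.518-fold) were called as well. Every one of the 12 lower genes named by fold lost its call with pigment epithelium and crystallin covariates and without at least 1 library, and with the covariates 1 gene of all was called lower. Cck lost its call without OIR 3 or 4 (adjusted p up to 0.057), Kirrel without control 3 (adjusted p = 0.11) and Tenm2 without OIR 2, OIR 3 or control 3 (adjusted p up to 0.09). Of 39 synaptic adhesion genes 2, Tenm2 and Fat4, were called lower and 0 higher (median log2 -0.34), and of 30 potassium channels 1 lower and 0 higher (median -0.21). For comparison, 0.251% of all tested genes were called lower. Of 19 neuropeptides, Tac1, the precursor of substance P (1.95-fold), and Vip (1.94-fold) were called higher beside Cck, each lost without at least 2 of the 8 libraries in turn (adjusted p up to 0.22). The fat oxidation enzyme Cpt1a was lower (0.636-fold, adjusted p = 0.022, lost without OIR 3, OIR 4 or control 3), and the lipid droplet protein Plin2 was higher (2.45-fold, adjusted p = 4.2e-04).

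Of 21 genes of the pigment epithelium, the layer that recycles retinal for the photoreceptors, 4 were called higher and 0 lower. Rpe65, the isomerase of that cycle, stood at 77.9, 92.3, 143 and 72.6 CPM in OIR retinas, against 34.6, 18.5, 16.6 and 13.3 CPM in control retinas (4.65-fold, adjusted p = 0.012), without overlap and highest in OIR 3. The other calls were Rgr (3.7-fold), Ttr, transthyretin (3.84-fold), and Stra6, the retinol carrier (3.36-fold). Leaving out OIR 3, control 3 or control 4 left 0 of the 21 called. Of the 21 genes 15 had a positive estimate, and Rdh5 (2.82-fold, adjusted p = 0.11) and Best1 (0.865-fold, adjusted p = 0.97) were not called. The sums given earlier were higher in every OIR library than in any control library. How far pigment epithelium RNA moved the other genes was not tested. As a covariate the pigment epithelium sum was fitted beside the 10 groups over all 40 libraries, so its slope came from differences within groups. Since the sums of the 2 groups do not overlap, the adjusted difference leans on that slope. How much of the difference goes with pigment epithelium RNA cannot be told from it. With this covariate 69 genes were called, and 50 with crystallins added. Cryaa, a lens crystallin, stood at 1.67, 45.4, 46.8 and 1378 CPM in OIR retinas, against 0, 0, 0 and 0.135 CPM in control retinas (adjusted p = 0.038), and its call was lost when any 1 of 7 libraries was left out. Of 8 red blood cell genes 4 were called, such as Hbb-bs, a globin (3.86-fold, adjusted p = 0.014). Without OIR 2 or control 3 none of the 8 was called, and the Hbb-bs groups overlapped, since OIR 1 (81.8 CPM) lay below control 1 (117 CPM).

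Short transcripts were higher than long ones in the OIR libraries. Among 11748 genes with a mean of at least 5 CPM and a GENCODE exon length, the median log2 change was 0.25 in the shortest class of 5 (126 to 2596 bases) and -0.13 in the longest (8032 to 123179 bases). The shortest class held 141 genes called higher and 8 lower, and the longest 35 higher and 21 lower. At P19 the medians of these classes were 0.27 in the shortest and -0.10 in the longest, with 103 and 5 genes called higher. The agreement between the ages therefore holds this length pattern as well. The difference between the medians of the shortest and longest class was 0.13, 0.37, 0.54 and 0.45 (log2) in OIR libraries 1 to 4, against 0.27, 0.00, -0.48 and 0.18 in control libraries 1 to 4. Control 3 was the only library in which long genes were higher. With offsets for length 531 genes were called, 422 higher and 109 lower. The median log2 change of all tested genes was -0.14 with the offsets, against -0.05 without, so part of any lower list median is this general shift. Of the lists described here, nuclear-encoded respiratory chain genes had 44 of 45 estimates above 0 but 1 call, Cox4i2 (1.76-fold, adjusted p = 0.015, lost without OIR 3 or control 3), and their median moved to 0.11 with the offsets, against 0.36 without. The offsets also lowered the medians of the annexin list (0.65, against 0.92 without), p53 targets (0.06, against 0.40), HIF targets (0.34, against 0.50), Fc receptors (0.57, against 0.76), interferon response (0.55, against 0.73), antigen presentation (0.85, against 0.99) and pigment epithelium (0.55, against 0.71). The tip cell (0.26, against 0.50), metallothionein (0.27, against 0.42) and chemokine (0.73, against 0.87) medians fell too, as did those of further lists. Medians of the activated microglia (1.20), complement (1.42) and glycolysis (0.46) lists moved by less than 0.1.

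**Figure D4:**
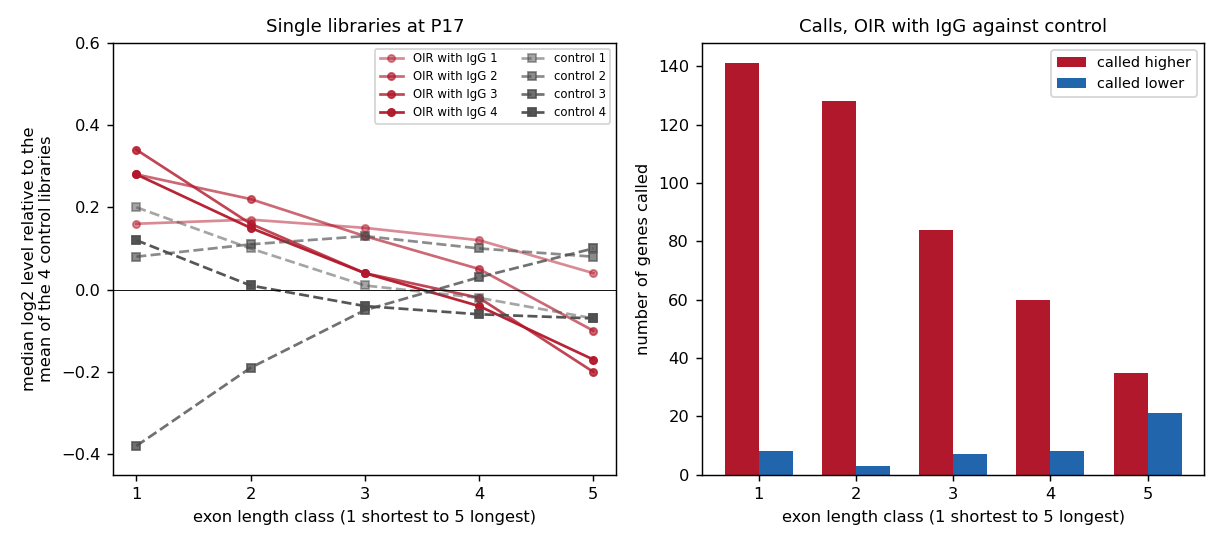
Left, median log2 level of genes in 5 classes of exon length in each P17 library, relative to the mean of the 4 control libraries (OIR with IgG red and solid, control grey and dashed). Right, number of genes called higher (red) and lower (blue) in OIR retinas with IgG in each class. Calls higher run from 141 in the shortest to 35 in the longest class, and control 3 runs opposite to the 4 OIR libraries.

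The same comparison at P19, on other retinas, called 193 genes higher (0.821%) and 23 lower (0.0979%). Of the 496 genes higher at P17, 464 had a positive estimate at P19 and 88 were called higher. The median log2 change of all tested genes at P19 was -0.05. Of the 59 lower at P17, 42 had a negative estimate and 2 were called. Ndufa4l2 was at 46.6 ± 13.9 CPM in OIR and 2.05 ± 0.376 CPM in control retinas at P19 (22.6-fold, adjusted p = 2.4e-14), and Adm at 12.2 ± 2.28 CPM in OIR and 0.788 ± 0.737 CPM in control retinas (15.4-fold). Lyz2 (10.5-fold), C1qc (3.9-fold) and Id1 (3.11-fold) were called at both ages. No gene of the 26 in glycolysis was called at P19, and their median log2 change was -0.06. Bnip3 was at 486 ± 70.1 CPM in OIR and 413 ± 28.8 CPM in control retinas at P19 (1.18-fold) and Slc16a3 at 70.4 ± 9.31 CPM in OIR and 62.7 ± 6.78 CPM in control retinas (1.12-fold). Serpine3 was at 33.6 ± 13.9 CPM in OIR and 21.6 ± 16.9 CPM in control retinas (1.56-fold, adjusted p = 0.8). Pigment epithelium genes had 0 calls at P19 (median log2 -0.03, against 0.71 at P17), as had red blood cell genes (0.21, against 1.59). The crystallin median was 0.31 at P19, against 8.18 at P17. Whether this bears on the differences of other genes between the ages was not tested. The difference between the ages was tested for every gene. It did not pass after adjustment for Serpine3 (log2 difference 5.42, SE 1.08, adjusted p = 0.16), Bnip3 (1.09, SE 0.25, adjusted p = 0.27) or Slc16a3 (1.13, SE 0.26, adjusted p = 0.27). It passed for 1 gene (0.00426% of those tested) in edgeR, 2900052N01Rik, and 1335 genes had an unadjusted p under 0.05.

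**Figure D5:**
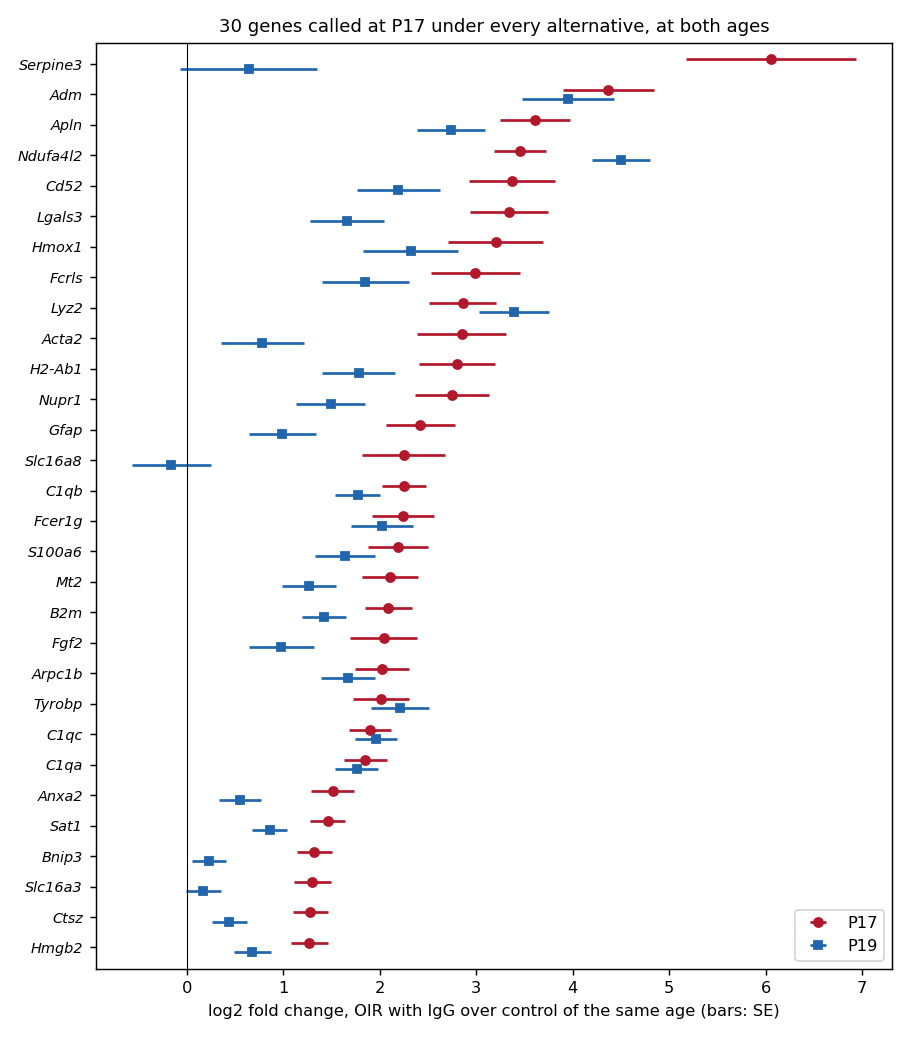
Log2 fold change of OIR retinas with IgG over control retinas, with its SE, at P17 (red circles) and P19 (blue squares), for the 30 named genes called at P17 under every alternative setting. The genes were chosen by their P17 calls. Adm, Ndufa4l2, Lyz2 and C1qc lie far from 0 at both ages, and Serpine3, Slc16a8, Bnip3 and Slc16a3 lie nearer 0 at P19 than at P17.

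In all, 30 of the 127 named genes that were called kept their call under every alternative setting. They were Adm, Ndufa4l2, Bnip3 and Slc16a3 of the hypoxia and glycolysis lists, Apln and Acta2 of the vessel wall, and Serpine3. The microglial and antigen genes among them were C1qa, C1qb, C1qc, Fcrls, Lyz2, Cd52, Tyrobp, Ctsz, Fcer1g, Lgals3, B2m and H2-Ab1. Gfap, Fgf2, S100a6, Anxa2, Mt2, Hmox1 and Hmgb2 were the others of the lists, and Sat1, Nupr1, Slc16a8 and Arpc1b were named after their values were seen.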

How the data were processed

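Each library held messenger RNA of 1 whole mouse retina, amplified with SMART-Seq and made into a library with Nextera XT, per the labels' protocols. The authors deposited RSEM expected counts and TPM per gene symbol. STAR 2.7.10a, RSEM 1.3.3 and GRCm38.p4 are named in the submitters' processing notes, and those sources name no annotation. Expected counts (15.7% of nonzero values not whole) were rounded. Symbols with more than 1 row kept each row (2036 further rows, 516 tested), and amplified reads without molecular identifiers are not independent molecules.

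edgeR 4.0.16 in R 4.3.3 was fitted to all 40 libraries in 10 groups, which share 1 estimate of the spread (filterByExpr, TMM, robust quasi-likelihood, Benjamini-Hochberg over 23495 genes). SE is the absolute log2 fold change over the square root of F. DESeq2 1.42.0 and limma 3.58.1 served as alternatives, and tables were made with Python 3.11.15 and pandas 2.3.3. TPM was used in limma-trend on log2(TPM + 1). Members and the 55 gene lists were chosen with earlier results of these data known. Genes were named as the 12 with the largest fold in each direction (called, mean of at least 5 CPM, groups without overlap, a proper symbol), up to 4 called members of each list by p, a set list of marker genes, and, for a list with no call, the member with the smallest p. Other list members in the text, and the genes of the closing observations, were chosen after their values were seen. Some genes are not reported here.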

Additional observations from a re-analysis of the deposited data

Results flagged for a closer look

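Within each group of 4 retinas, the highest and the lowest value of each named gene and of the library measures were compared with the rest by Dixon's ratio, and 19 of 298 groups held a value far from the other 3. Chance alone flags about 1 in 20 groups. In the OIR group, retina 4 stood apart for the summed crystallins (4498 CPM, the next retina at 224 CPM) and for Cryaa (1378 CPM, the next at 46.8 CPM). OIR 2 stood apart as the highest for Cebpd (111 CPM), Tnfrsf12a (26.9 CPM), Cp (270 CPM), Stat3 (97.1 CPM) and Socs3 (10.1 CPM). OIR 3 was the highest for Mmp12 (11.9 CPM) and Ttr (616 CPM). OIR 1 was the highest for Pecam1 (6.73 CPM) and the lowest for Aif1 (1.2 CPM in 1 of its rows). In the control group, retina 3 was the highest for Tenm2 (81.8 CPM) and the lowest for Fam162a (50.1 CPM) and H2-Ab1 (0.51 CPM in 1 of its rows). Control 1 was the highest for B2m (34 CPM) and Tek (2.29 CPM), control 2 for Apln (6.35 CPM), and control 4 for Osmr (5.45 CPM) and Cryaa (0.135 CPM, the other 3 at 0).

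The transcript 2900052N01Rik, at chr9:46913603-46927366 in GRCm38, was the 1 gene whose OIR effect differed between the ages after adjustment. At P17 it stood at 22.6, 38.1, 39.7 and 23.4 CPM in OIR retinas, against 11.3, 11.7, 8.1 and 8.28 CPM in control retinas (3.14-fold, edgeR adjusted p = 2.7e-05). At P19 it averaged 20.8 ± 4.72 CPM in OIR and 27.7 ± 2.88 CPM in control retinas (SD, n = 4 each, 0.75-fold, edgeR adjusted p = 0.48). The difference of the effects was 2.07 (log2, SE 0.34, edgeR adjusted p = 0.006). Its P17 values were higher in all 4 OIR retinas, and its P17 call was kept under every alternative setting.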

How the results depend on the processing

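The number of called genes was 555 in edgeR. It was 1051 (751 higher, 300 lower) in a fit to the 20 libraries of P17, 1062 (782 and 280) in DESeq2, 1036 (783 and 253) in limma-voom with quality weights and 362 (161 and 201) in limma-trend on log2(TPM + 1). It was 293 (281 and 12) with a crystallin covariate, 69 (68 and 1) with a pigment epithelium covariate, 50 (49 and 1) with both, and 168 (160 and 8) without control 3 and OIR 4 together. Genes lower numbered 109 with gene-length offsets and 198 in a fit to the 8 libraries alone. Leaving out 1 library gave 181 to 637 calls, 166 to 568 higher and 12 to 93 lower. The fewest calls came without control 3 (181), OIR 2 (214), OIR 3 (248) and control 4 (284), and the cause was not tested. No named gene that was called changed its direction. The difference between P17 and P19 was called for 1 gene in edgeR, 32 in DESeq2, 8 in limma-trend on TPM and 28 in limma-voom. Deviations of samples that share a replicate number had correlations of -0.18, 0.06, -0.11 and 0.08. Those of samples with different numbers ran from -0.13 to 0.20. So few pairs cannot show whether the numbers pair retinas. The replicate block gave 603 calls, 535 higher and 68 lower. The crystallin and pigment epithelium covariates alone, the fit without control 3 and OIR 4, summed copies and length offsets were chosen after seeing the data. Depth limits genes under about 1 CPM, such as lymphocyte and neutrophil markers, for which no difference was detectable.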

Other observations

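The genes in this section were chosen after their values were seen. Of 6 enzymes of polyamine turnover looked up, Sat1, Odc1 and Amd1 were called higher in OIR retinas. Sat1, which acetylates spermidine and spermine for export or breakdown, stood at 254, 435, 406 and 379 CPM in OIR retinas, against 160, 141, 96.9 and 138 CPM in control retinas (2.75-fold, edgeR adjusted p = 8.3e-07). Odc1, which makes putrescine, stood at 172, 159, 185 and 181 CPM in OIR retinas, against 104, 108, 74 and 93.4 CPM in control retinas (1.84-fold, adjusted p = 9.0e-04). Amd1, which supplies the aminopropyl donor, was 1.81-fold higher (adjusted p = 4.8e-05). None of these groups overlapped. The synthases between them were not called: Srm was at 1.04-fold (adjusted p = 0.94) and Sms at 1.39-fold (adjusted p = 0.12). The oxidase Smox was at 1.23-fold (adjusted p = 0.43). At P19 Sat1 was 1.81-fold higher (adjusted p = 0.0077), Odc1 was at 1.02-fold and Amd1 at 1.02-fold. The differences between the ages did not pass (adjusted p = 0.8 for Sat1, adjusted p = 0.46 for Odc1 and adjusted p = 0.23 for Amd1). Odc1 lost its call with pigment epithelium covariates and Amd1 in limma-trend on TPM.

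Among the genes called lower were Ddx17, Sfpq and Tnrc6b. Ddx17, an RNA helicase, stood at 148, 116, 125 and 135 CPM in OIR retinas, against 214, 187, 221 and 248 CPM in control retinas (0.603-fold, adjusted p = 0.003). Sfpq, a splicing factor, was lower (0.624-fold, adjusted p = 0.0091), as was Tnrc6b, which acts with microRNAs (0.625-fold, adjusted p = 0.015). All 3 lost their calls with pigment epithelium covariates, Sfpq also without OIR 3 (adjusted p = 0.064), and Tnrc6b when any 1 of 4 libraries was left out (adjusted p up to 0.086).

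Nupr1, a stress-induced chromatin protein, stood at 21.8, 48.2, 24.5 and 32.8 CPM in OIR retinas, against 4.37, 5.99, 2.55 and 5.99 CPM in control retinas (6.71-fold, adjusted p = 9.0e-06). Slc16a8, the lactate carrier of the pigment epithelium, stood at 57.1, 63.4, 108 and 52.7 CPM in OIR retinas, against 10.8, 23.1, 14 and 10.9 CPM in control retinas (4.76-fold, adjusted p = 0.0019), and was at 0.893-fold at P19. Plat, tissue plasminogen activator, was 2.91-fold higher (adjusted p = 0.0018). Prss56, a serine protease of Müller glia, stood at 36.8, 96.8, 106 and 83.5 CPM in OIR retinas, against 8.07, 11.6, 11.7 and 15.6 CPM in control retinas (6.89-fold, adjusted p = 0.028), and its call was lost when any 1 of 7 libraries was left out (adjusted p up to 0.12). Pomc, the precursor of melanocortins and endorphin, was 2.39-fold higher at P17 (adjusted p = 0.0039, lost without control 3) and 2.5-fold higher at P19 (adjusted p = 0.0055).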
